A study of Mus musculus with 18 samples.

Results

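The genes for the proteins of the cytoplasmic ribosome were taken by symbol, as Rpl or Rps followed by a number, with the stalk genes Rplp0, Rplp1 and Rplp2 and the lettered and "-like" copies that share the same form. The rule gave 83 of the 32747 gene symbols in the tables, 52 of the large and 31 of the small subunit. Of these, 82 were listed in every table, and Rpl6l was listed in the bulk table and the 3 mixed-sex whole-bladder tables. In all, 77 members reached at least 10 counts in every library. The other six were the copies Rpl3l, Rpl6l, Rpl10l and Rpl39l, and Rps12 and Rps29.

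The cytoplasmic ribosome reads messenger RNA and builds protein, and each of its subunits is a core of ribosomal RNA covered by ribosomal proteins that are mostly present in a single copy. Cells make these proteins in matched amounts, and their messenger RNAs are among the most abundant of any cell. Most of these messenger RNAs start with a C followed by a run of pyrimidines, the terminal oligopyrimidine tract, through which the mTOR pathway controls their translation. Most members also have processed pseudogenes, intronless copies scattered over the genome with nearly the same sequence.

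All animals were C57BL/6 mice with no other treatment named. Whole bladder was dissociated into single cells in 5 libraries: pools of 3 males at 22 months and of 3 males at 3 months, 2 libraries at 12 months and 1 at 24 months, each of 2 females and 2 males. Nuclei came from 2 females and 2 males at 12 months, cells of the detrusor (the muscle wall) from 3 females at 14 months, and a detrusor-enriched whole-bladder cell library from 2 females and 2 males at 14 months. Frozen whole-bladder sections of males were spread on barcoded spots (Visium), 2 at 22 and 2 at 14 months, each labelled with 4 males, and bulk RNA was sequenced from intact bladder and from dissociated bladder, 3 libraries each, labelled as 3 females of 12 months. The labels do not say which bulk libraries or sections share an animal, so p-values measure the spread between these libraries, which may be technical. Totals ran from 5197910 UMI (unique molecular identifier) counts in the nuclei to 68760791 read counts in tissue library 2.

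The start of the transcript is where the known translational control of these genes acts, and windows of 30 bases around the start annotated by RefSeq (GRCm38.p6) are given here for members that the results return to. Of the 83 members, 62 had such a window. A tract, here C at the annotated start followed by at least 4 bases of C or T, was read on the transcribed strand only. It was present in 13 of the 62 members (20.97%) and in 813 of 27025 genes (3.008%), and within 5 bases of the annotated start in 29 members (46.77%) and in 21.16% of all genes. The match describes the annotated start and does not show where transcription begins in bladder. The first 5 windows hold the tract, in capitals, from the 16th base. The last 4 belong to Rplp0, the stalk base, and to 3 copies whose values differed from those of other members, and have no tract at that position.
Rps6, chr4:86857353-86857382, minus strand: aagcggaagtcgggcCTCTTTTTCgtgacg
Rps27, chr3:90213634-90213663, minus strand: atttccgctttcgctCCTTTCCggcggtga
Rplp2, chr7:141447636-141447665, plus strand: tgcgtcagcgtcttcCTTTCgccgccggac
Rps15a, chr7:118116133-118116162, minus strand: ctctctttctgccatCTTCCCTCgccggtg
Rps18, chr17:33955651-33955680, minus strand: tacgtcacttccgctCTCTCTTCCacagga
Rplp0, chr5:115559452-115559481, plus strand: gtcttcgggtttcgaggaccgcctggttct
Rpl22l1, chr3:28805493-28805522, plus strand: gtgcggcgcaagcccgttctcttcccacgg
Rpl7l1, chr17:46782642-46782671, minus strand: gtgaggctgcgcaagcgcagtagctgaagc
Rps27l, chr9:66946071-66946100, plus strand: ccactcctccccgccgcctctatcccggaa

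The share of a library's counts that fell in the members followed the kind of table. It was 29.59 and 29.96% in the 12-month whole-bladder cell libraries and 30.39% in the 24-month one. It was 8.108% in the 22-month and 6.97% in the 3-month male cell libraries. The detrusor cells lay between, at 16.16% in the detrusor-only and 17.73% in the detrusor-enriched library. The nuclei held 5.904%. The sections held 18.83 and 21.21% at 22 months and 16.82 and 17.26% at 14 months, and bulk libraries from 3.326 to 4.213%. Large-subunit genes, 52 against 31 of the small subunit, took the greater part in every library. Exact binomial 95% intervals were within 0.02153 percentage points of each library's share and cover counting error only. Bulk shares count reads over whole transcripts, which favours long messenger RNAs, so they were not set against UMI shares.

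**Figure D1:**
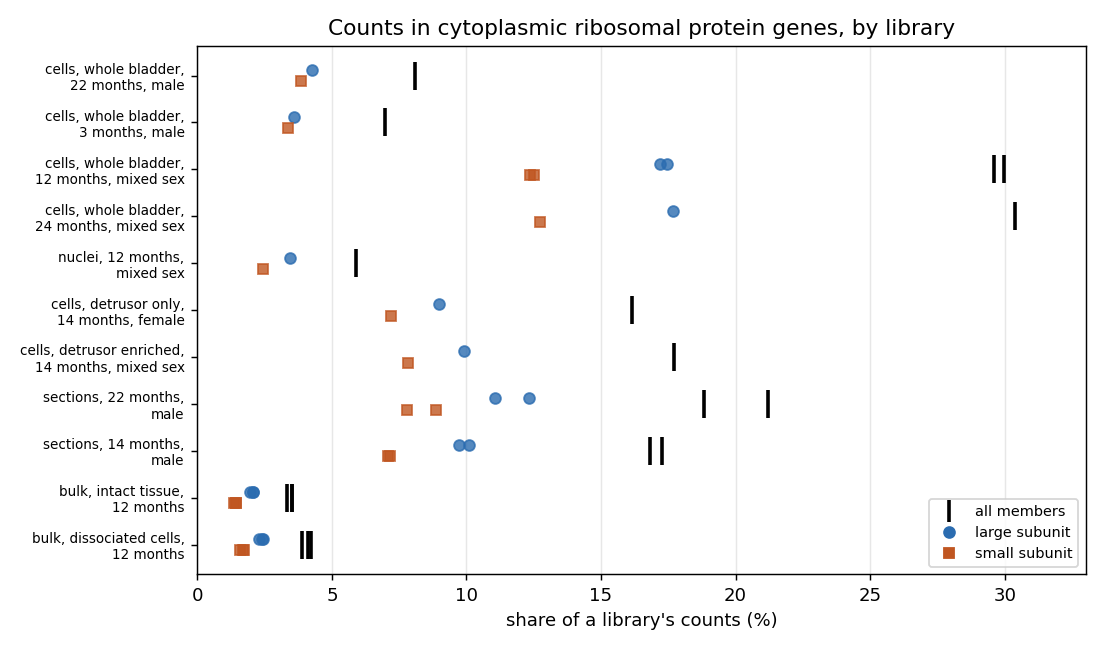
Share of each library's counts (%, x axis) in all members (black bars), large-subunit members (blue circles) and small-subunit members (orange squares), by group of libraries (y axis). The mixed-sex whole-bladder cells reach 29.59 to 30.39%, while the 2 male whole-bladder libraries stand at 6.97 and 8.108%.

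The male whole-bladder tables stood apart from all others in which members they counted, and tests between cell classes and of nuclei are therefore also given without them. They list 27775 genes with barcodes of 14 bases, and the mixed-sex libraries were given with 27998 genes and barcodes of 16 bases, so gene list and barcode length cannot be told apart between them. Over the 77 members, the SD of the log2 level in CPM (counts scaled to equal library totals) was 3.505 in the male and 1.077 in the mixed-sex libraries, and from 0.9215 to 1.046 in the nuclei, detrusor and section libraries. The 10 most abundant members held 47.34% of member counts in the male and 23.29% in the mixed-sex libraries. Of 82 members listed, 19 lay under 10 CPM in the male libraries, and 3 of 83 in the mixed-sex ones. The 2 kinds of library also differed in cell make-up, by the classes described below. Urothelial-like cells numbered 1144 to 1485 of 6007 to 8353 cells in the male libraries. In the mixed-sex ones they numbered 617 to 1882 of 948 to 2790 cells. Shares within classes are given below, and the part of cell make-up in the gap was not tested.

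Single members show the gap. Rps12, a small-subunit protein, had 0 counts in both male libraries, which allows up to 0.1161 CPM at 22 and 0.2259 CPM at 3 months. It had 2118, 2676 and 2601 CPM in the mixed-sex libraries, at least 9377-fold higher. Rps6, the small-subunit protein phosphorylated downstream of mTOR, had 0.5805 (22 months) and 1.656 CPM (3 months) in males, against 5665, 5015 and 5252 CPM in the mixed-sex pools. Rps29 was at 0.6192 and 0.4518 CPM against 5738, 7170 and 5780 CPM. These genes were not low in the sections, also of males, at 2533 to 3412 CPM for Rps12, 1571 to 1855 CPM for Rps6 and 3035 to 4221 CPM for Rps29. Sections differ from the male cell libraries in preparation and gene list, and the part of sex in the gap was not tested.

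Other members were well counted in both kinds. Rps14 at 4241 ± 460.7 CPM and Rplp0 at 4225 ± 39.05 CPM (SD, n = 2) were among the 3 highest in the male libraries, and Rpl13 at 8062 ± 745.5 CPM, Rps19 at 7480 ± 704.9 CPM and Rps14 at 7236 ± 444.4 CPM (SD, n = 3) were the highest in the mixed-sex ones. In 75 of the 77 members every mixed-sex library lay above both male libraries, with a median log2 difference of 2.32 and a range from -1.60 to 12.21. The same count was not made over all genes, so the gap is not known to be particular to the members. The negative end was Rpl7l1, a copy of Rpl7 with a known part in ribosome assembly, at 90.18 and 91.78 CPM in males and 27.82 to 31.27 CPM in mixed-sex pools.

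By median, members with more named pseudogenes were counted less in the male tables. RefSeq names 304 pseudogenes after members. Among the 78 members with at least 100 CPM in every mixed-sex library, the male level was a median of 28.99% of the mixed-sex level for the 21 members with 0 named pseudogenes. It was 6.627% for the 28 members with 1 to 3 and 2.564% for the 29 with 4 or more. The male level was under 1% of the mixed-sex level for 2, 10 and 13 members of these groups, and over 20% of it for 15, 12 and 11. Spearman's rho of the 2 measures was -0.378 over the 78 members, which share the same libraries. There were exceptions on both sides. Rps2 with 12 and Rps19 with 13 named pseudogenes had male levels of 68.01 and 54.86% of the mixed-sex level. Rps29 and Rpl24 had 0 named pseudogenes and male levels of 0.008596 and 0.1269% of the mixed-sex level. Counts on pseudogene symbols themselves were 0.05518 and 0.1125 per 100 member counts in males and 1.134 to 2.074 in mixed-sex pools. Rps12-ps3 had 384.5 to 855.6 CPM in the mixed-sex and at most 0.1935 CPM in the male libraries. Reads of a member and of its copies can be split or dropped in counting, so the level of a member with many copies is uncertain in each table, and the part of this in the result was not tested.

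**Figure D2:**
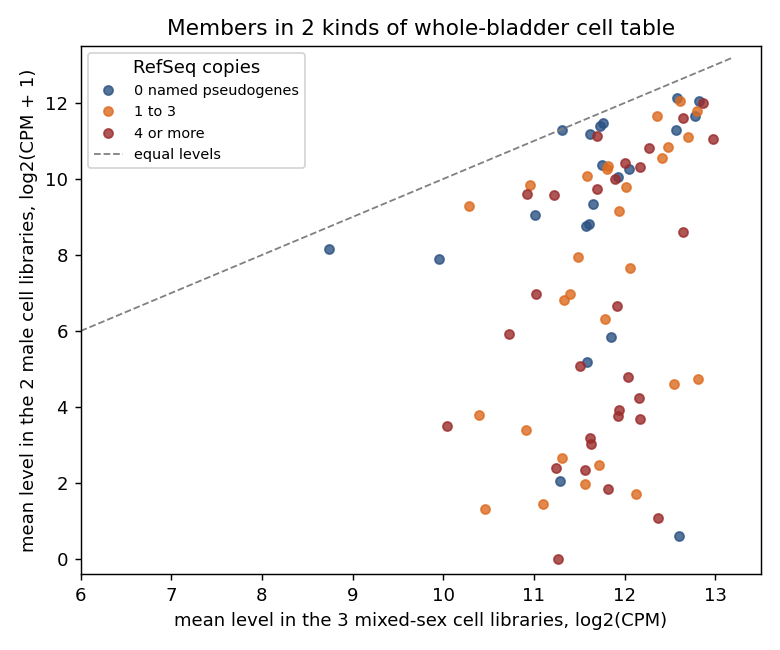
Mean level of 78 members in the 3 mixed-sex (x axis, log2 CPM) and the 2 male whole-bladder cell libraries (y axis, log2 of CPM + 1), coloured by the number of pseudogenes named after the member in RefSeq. Points on the dashed line would be equal; 25 members have a male level under 1% of the mixed-sex level.

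The order of the members by level also followed the kind of table. Over the 77 members, Spearman's rho of levels was 0.956 between the 2 detrusor libraries, 0.824 and 0.858 between nuclei and detrusor, and from 0.303 to 0.440 between the male cells and the other UMI libraries. These values describe tables that share a counting method or a tissue. Rplp1, an acidic protein of the stalk that recruits elongation factors, led the sections at 5812 ± 553.2 CPM (SD, n = 4) and the detrusor libraries at 5013 and 5309 CPM. Rpl13a, a large-subunit protein also known for a role in interferon-driven translation control, varied with the kind of table. It was at 3335 to 7471 CPM in the 5 whole-bladder cell libraries. It was at 84.65 CPM in the nuclei, 204.5 and 270.6 CPM in the detrusor cells and 810.1 to 987.3 CPM in the sections, which share a gene list of 31053.

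The copies with restricted expression were nearly absent. Rpl10l and Rpl39l, which in other tissues are known from male germ cells, and Rpl3l, known from striated muscle, were the 3 lowest members in the UMI libraries other than the male cells, where Rps12 was lowest. Rpl10l had 0 counts in 14 of the 18 libraries and at most 0.6023 CPM in the others. Rpl3l did not exceed 0.481 CPM, nor Rpl39l 1.035 CPM, in any library. Rpl22l1, the copy of Rpl22, was well expressed, at 908.2 to 1034 CPM in the mixed-sex cells, 603.0 and 628.6 CPM in the detrusor cells and 291.7 to 344.6 CPM in the sections. Rps27l, a p53-responsive copy of Rps27, was at 402.0 to 449.5 CPM in the mixed-sex cells and 297.3 to 334.5 CPM in the sections.

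Within every whole-bladder cell library, the urothelial-like class gave the largest share of its counts to the members among the named classes. The urothelium is the epithelium that lines the bladder lumen. Cells were clustered without the members, and classes were named from marker lists. The share in urothelial-like cells was 15.38% in the 22-month and 10.86% in the 3-month male library, and 31.27, 31.60 and 33.20% in the mixed-sex libraries. In fibroblast-like cells it was 6.077 and 4.488% in the male and 17.43, 17.51 and 18.98% in the mixed-sex libraries. The log2 ratio of the shares was 1.34 and 1.28 in the male and 0.81 to 0.85 in the mixed-sex libraries, so urothelial-like cells were higher in 5 of 5 libraries. Exact binomial intervals of class shares were at most 0.22 percentage points to either side. Urothelial-like cells were also the deeper ones, with a median of 13080 to 18280 UMIs against 5178 to 6139 for fibroblast-like cells in the mixed-sex libraries, and the part of depth in the result was not tested.

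The lowest class was not the same one in each library. The macrophage or monocyte-like class was lowest in the 3-month male library at 3.808%, the first 12-month library at 17.21% and the 24-month library at 17.99%. Pericyte-like cells were lowest in the 22-month male library, and fibroblast-like cells in the second 12-month library. In the 22-month male library the T or NK-like class had 11.76%, the dendritic-like class 10.82%, the macrophage or monocyte-like class 6.036% and the pericyte-like class 4.737%. In the detrusor libraries the T or NK-like class was highest at 26.23 and 27.01%, beside urothelial-like cells at 26.47% in the detrusor-enriched library. Smooth muscle-like cells had 12.91 and 9.748% there, and macrophage or monocyte-like cells 11.89 and 13.62%. The Schwann-like class, which holds the glia of peripheral nerves, was lowest at 5.992 and 7.545%. In the nuclei the share was 7.88% in urothelial-like, 6.731% in macrophage or monocyte-like, 4.852% in fibroblast-like and 3.79% in smooth muscle-like nuclei. The macrophage or monocyte-like class of the second 12-month library, at 23.50%, was 1 cluster of 67 cells led by Cd74 and H2-Aa, with Jchain among its top genes. It is not comparable with that class in the libraries that also held a dendritic-like class, which was at 23.33 and 26.92% in the other mixed-sex libraries. Unnamed clusters held from 5.729 to 26.92% of the cells that entered these shares in 7 of the libraries, and none in the 24-month one. These shares come from 1 library each, so classes were compared by test only where several libraries held both.

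**Figure D3:**
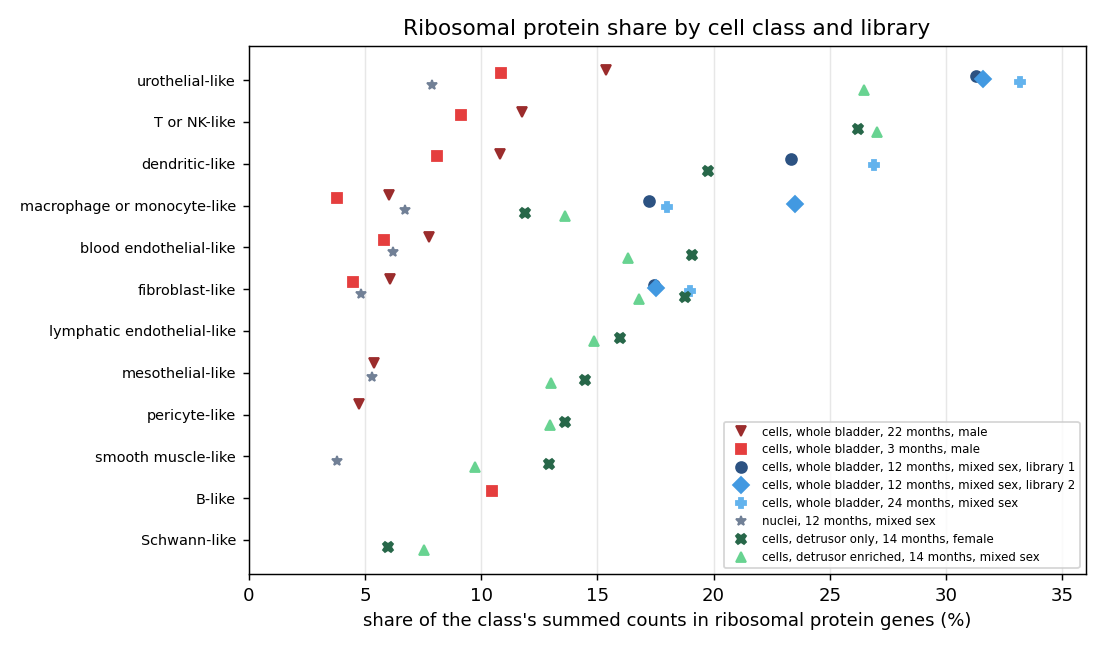
Share of a class's summed counts in the members (%, x axis) for each named cell class (y axis), 1 symbol per library. Urothelial-like cells are highest in all 5 whole-bladder libraries, from 10.86 to 33.20%, and Schwann-like cells lowest in both detrusor libraries, at 5.992 and 7.545%.

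Gene by gene, nearly all members were higher in urothelial-like than in fibroblast-like cells. Counts were summed per library and class and tested with edgeR's quasi-likelihood test with library as a block, TMM normalization and Benjamini-Hochberg adjustment over 12611 genes. Of the 79 members tested, 78 rose and 0 fell, where 35.9% of all genes were called higher and 30.9% lower. In 75 members the urothelial-like sum was the higher one in every library, as it was for 36.9% of all genes. The median log2 fold change was 1.36 for the members and 0.11 for all genes tested. Within single libraries the median over the members ran from 1.22 to 1.47, with 76 to 79 of 79 members higher. In the mixed-sex libraries alone 77 of 79 members were called higher, as were 34.1% of all genes, and in the male libraries alone 63 of 76, as were 23.9%. Without the library block 26 of 79 were called higher, near the 27.9% of all genes.

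The largest rise was in Rpl32, a large-subunit protein. Its TMM-normalised level was 7240, 4062, 11280, 10590 and 11840 CPM in urothelial-like cells of the 22-month, 3-month, 12-month and 24-month libraries in that order. In fibroblast-like cells of the same libraries it was 1989, 1080, 2973, 2612 and 3038 CPM. Every urothelial-like sum lay above every fibroblast-like sum, and the log2 fold change was 1.94 ± 0.06 (SE, edgeR adjusted p = 1.28e-07). Rpl36 followed at 1.75 ± 0.08 (edgeR adjusted p = 2.39e-07), at 8.17 and 15.36 CPM in male urothelial-like cells against 4542 to 6046 CPM in mixed-sex ones. Rpl37a at 1.73, Rps28 at 1.71 and Rps18 at 1.70 were next in log2 fold change. The stalk genes rose as well, by 1.63 for Rplp0, 1.43 for Rplp1 and 1.66 for Rplp2 on the log2 scale. Rps27a, which is made as a fusion with ubiquitin, rose by 1.36, and Rpl41, the smallest protein of the ribosome, by 1.16.

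The copies moved less than their parents. Rpl22l1 rose by 0.34 ± 0.09 (SE, edgeR adjusted p = 0.00769) and its parent Rpl22 by 1.13 ± 0.07 (edgeR adjusted p = 1.06e-06) on the log2 scale. Scaled by library size alone, Rpl22l1 had the opposite sign, at -0.06. Rps27l rose by 0.60 and its parent Rps27 by 1.25. Rpl7l1 was the member not called, at a log2 fold change of 0.21 ± 0.18 (SE, edgeR adjusted p = 0.332), and -0.24 in the male libraries alone, while Rpl7 rose by 1.25. The difference between a copy and its parent was not tested.

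Other genes of the translation machinery rose in part. All 4 other ribosomal protein genes tested rose, with Fau, a ribosomal protein made as a fusion with a ubiquitin-like protein, at 1.92. Of 15 translation factors and related genes, 14 rose and 0 fell, with a median log2 fold change of 1.03. Pabpc1, the poly(A)-binding protein, was at 1.60. Of 77 mitochondrial ribosomal protein genes, 59 rose and 2 fell, with a median of 0.61. Of 25 ribosome assembly genes, 12 rose and 1 fell, with a median of 0.32. In the same fit 35.9% of all genes were called higher and 30.9% lower.

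**Figure D4:**
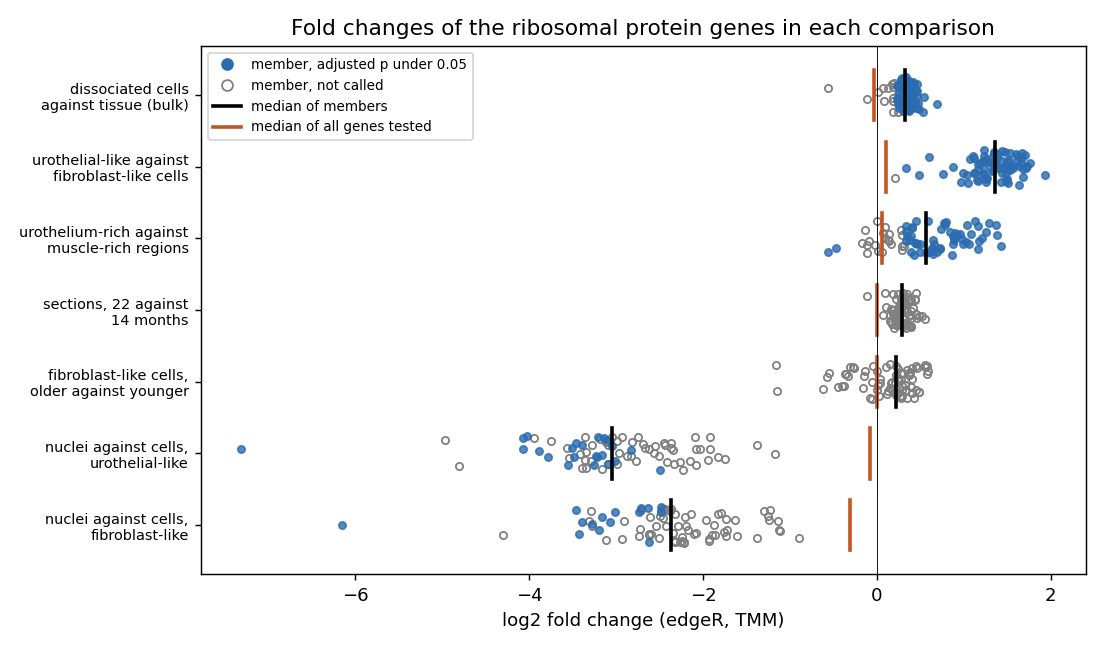
Log2 fold changes (x axis) of the members tested in each of 7 comparisons (y axis), filled where the edgeR adjusted p was under 0.05, with the median of the members (black) and of all genes tested (orange). Members sit to the right of the all-gene median in urothelial-like cells (median 1.36) and to the left in nuclei (medians -3.05 and -2.37).

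The sections showed a difference of the same direction, here against muscle and not fibroblast-like cells, between the urothelium-rich and the muscle-rich region. In each section these are the clusters of spots with the highest levels of the urothelial and of the smooth muscle marker list, with 54 to 97 and 133 to 213 spots. A spot can hold several cells of different types. The member share was 20.25, 24.53, 16.84 and 19.11% in the urothelium-rich region and 12.83, 12.08, 12.36 and 12.75% in the muscle-rich region of the 2 sections at 22 months and the 2 at 14 months. Of 79 members tested with section as a block, 56 rose and 2 fell (edgeR), where 37.3% of all genes were called higher and 35.6% lower. The urothelium-rich region was the higher one in every section for 57 members and the lower one for 2, as for 39.5 and 36.4% of all genes. The median log2 fold change was 0.56 for the members and 0.06 for all 12520 genes. By section the median over members was 0.56 and 0.98 at 22 months and 0.25 and 0.45 at 14 months. The urothelium-rich spots were the deeper ones, with medians of 50400 to 64240 UMIs against 10690 to 15180, and the part of depth was not tested.

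Members differed among themselves, with an SD of log2 fold changes of 0.45 between regions and 0.31 between the cell classes. Rpl37 was at 4980, 6619, 4080 and 4963 CPM in the urothelium-rich and at 1951, 1861, 1897 and 1886 CPM in the muscle-rich region. The groups did not overlap, and the log2 fold change was 1.42 ± 0.15 (SE, edgeR adjusted p = 1.73e-08). Rpl23 at 1.38, Rps27a at 1.37, Rpl4 at 1.28 and Rps20 at 1.26 followed. Rps14, a small-subunit protein, went the other way. It was at 2046, 3158, 1757 and 2161 CPM in the urothelium-rich and at 3165, 3608, 3495 and 2979 CPM in the muscle-rich regions, and it fell by 0.57 ± 0.15 on the log2 scale (SE, edgeR adjusted p = 0.00149). It was lower in the urothelium-rich region of each section. Rpl7a also fell, by 0.48 ± 0.13 (SE, edgeR adjusted p = 0.00217), from 1002 to 1125 CPM in the muscle-rich to 618.6 to 978.3 CPM in the urothelium-rich regions. Both rose in urothelial-like against fibroblast-like cells, with Rpl7a at a log2 fold change of 0.49. The stalk genes showed 0.39 for Rplp0, 0.45 for Rplp2 and 0.32 for Rplp1 (adjusted p = 0.0627, edgeR).

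In all 4 sections another region had a higher member share than the urothelium-rich one. In 3 sections the region with the highest share had Gm42418, a locus that overlaps ribosomal RNA sequence, as its leading gene and Lars2 among the next. The shares were 21.96 and 28.36% at 22 months and 22.06% in the second section of 14 months. In the first section of 14 months the highest share, 20.36%, was in a region led by Atf3. By the marker lists these regions were urothelial-like in 3 sections, and the one of the second 22-month section had no name. Regions with Spon1 and Car3 among their leading genes had 21.75% in the second 22-month section and 19.22 and 19% in those of 14 months. The urothelium-rich regions of the same sections had 24.53, 16.84 and 19.11%.

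No member was called between the ages of the sections. The share of counts was 20.02 ± 1.68% at 22 months and 17.04 ± 0.31% at 14 months (SD, n = 2). With edgeR 0 of 79 members were called in either direction, where 0% of all 14995 genes were called. At an unadjusted p under 0.05 (edgeR) there were 21 of the 79 members and 2488 of the 14995 genes. With DESeq2 9 members were called higher, where 1.29% of all genes were. The median log2 fold change of the members was 0.39 without the first and 0.15 without the second 22-month section. Each of these fits held 1 section at 22 months. In 69 of the 79 members both sections of 22 months lay above both of 14 months, as did 26.2% of all genes, and the median log2 fold change was 0.29 against 0.00 for all genes. Rplp1 was at 6054 and 7171 CPM at 22 and at 5514 and 5444 CPM at 14 months (adjusted p = 0.421, edgeR). Rpl7l1 was the 1 member apart the other way, as were 25.4% of all genes, at a log2 fold change of -0.12. Summed levels of marker lists differed between the ages in both directions. The T or NK list summed to 32.45 to 77.14 CPM at 22 and 19.79 to 22.02 CPM at 14 months, with 9 of 12 genes higher in both sections. The urothelial list summed to 13390 to 13800 against 11860 to 12890 CPM, with 6 of 14 genes higher and 4 lower. The adipocyte list summed to 1496 to 2124 against 671 to 998.6 CPM, with 2 of 8 genes higher and 1 lower. The neuron list summed to 976.8 to 1225 against 540.8 to 654.2 CPM, with 3 of 8 genes higher and 1 lower. In the fibroblast list 0 of 12 genes were higher and 5 lower. The plasma cell list summed to 824.1 to 2392 against 634 to 724.3 CPM, with 5 of 8 genes higher and 2 lower. The mesothelial list summed to 1131 to 1364 against 1569 to 1618 CPM, with 1 of 8 genes higher and 2 lower. The macrophage or monocyte list was lower, at 1095 to 1302 against 1411 to 1733 CPM with 9 of 12 genes lower. In the lymphatic endothelial list 6 of 8 and in the mast cell list 7 of 8 genes were lower. Their part in the result was not tested.

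Between older and younger fibroblast-like cells no member was called either. In a fit that also held male against mixed-sex pools, 0 of 79 members were called by edgeR or by DESeq2, and 0 had an unadjusted p under 0.05, with 0% of all 11332 genes called. The median log2 fold change was 0.22, and -0.24 without the sex term. Without the 24-month library the contrast is 1 male library of 22 months against 1 of 3 months, with the spread taken from the 12-month libraries. That compares these 2 libraries, not the ages, and 9 members were called higher and 7 lower, where 0.951% of all genes were called higher and 0.96% lower. Without either one of the male libraries, when the other has a term of its own and the contrast rests on the mixed-sex libraries, 0 members were called and the median was 0.08. Rpl22l1 was at 267.0 CPM in the 22-month and 146.5 CPM in the 3-month male library, and at 1479 CPM at 24 months against 1602 and 1332 CPM at 12 months in the mixed-sex ones.

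Nuclei were compared with whole cells in the urothelial-like and fibroblast-like classes. The member share was 7.88% in urothelial-like nuclei and 10.86 to 33.20% in the cells. In fibroblast-like nuclei it was 4.852%, above the 4.488% of the 3-month male cells and below the 6.077 to 18.98% of the other cell libraries. The macrophage or monocyte-like and blood endothelial-like classes were also not lower in nuclei than in every cell library. Macrophage or monocyte-like nuclei had 6.731% against 6.036 and 3.808% in the male cells, 17.21 to 23.50% in the mixed-sex cells and 11.89 and 13.62% in the detrusor cells. Blood endothelial-like nuclei had 6.225% against 7.764 and 5.821% in the male and 19.06 and 16.34% in the detrusor cells. Smooth muscle-like nuclei had 3.79%, below the 12.91 and 9.748% of the detrusor cells. Mesothelial-like nuclei had 5.291%, below the 5.376% of the 22-month male and the 14.47 and 12.99% of the detrusor cells. By gene, the 1 nuclei library was compared with 5 whole-bladder cell libraries of another preparation and gene list. Its own spread is unknown and was assumed to be that of the cell libraries, so the p-values rest on that assumption. In urothelial-like nuclei 0 of 80 members rose and 23 fell (edgeR), where 15.3% of all genes were called higher and 19.9% lower. The median log2 fold change was -3.05 for the members and -0.07 for all 13027 genes. In fibroblast-like nuclei 0 of 79 rose and 15 fell, where 8.19% of genes were called higher and 15.2% lower, with medians of -2.37 and -0.31. All members tested had a negative log2 fold change in both classes. One of them, Rpl39l in urothelial-like cells, could not have risen. It had 15 counts in the second 12-month library and 0 in all others, nuclei included. The nuclei lay below every cell library in 39 members in urothelial-like and 35 in fibroblast-like cells, as for 36.6 and 38.5% of all genes. Against the mixed-sex cell libraries alone, which do not hold the male tables, 79 of 80 and 78 of 79 members fell, with medians of -3.59 and -2.74, where 29.4 and 24.7% of genes were called lower. With other choices of cell libraries the member medians ran from -3.59 to -2.81 in urothelial-like and from -2.74 to -2.16 in fibroblast-like cells. The count of falls depended strongly on this choice. Scaled by library size alone, which moved the median of all genes to 1.09 and 0.57, the member medians were -1.68 and -1.38. Both comparisons share the nuclei library and the cell libraries.

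Among urothelial-like cells, Rps14 was at 8534, 5367, 11760, 10750 and 11880 CPM in the 5 cell libraries and at 575.5 CPM in nuclei. The nuclei lay far below every cell library, and the log2 fold change was -4.07 ± 0.64 (SE, edgeR adjusted p = 0.0044). Rplp0 was at 6252 to 10200 CPM in cells and at 784.5 CPM in nuclei, with a log2 fold change of -3.49 (edgeR adjusted p = 0.00294). Rpl32 at -4.07 and Rpl41 at -3.89 were also among the largest falls in log2 fold change. Rplp1 was at 1161 CPM in nuclei and 1745 to 9949 CPM in cells, with a log2 fold change of -2.51 (adjusted p = 0.104, edgeR). Rps27a, which the male tables hold at few counts, was at 3.327 and 2.699 CPM in the male cells, at 6775, 6786 and 7413 CPM in the mixed-sex cells and at 613.5 CPM in nuclei, and was not called (adjusted p = 0.618, edgeR).

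Rpl13a had the largest fall in both classes, with log2 fold changes of -7.31 in urothelial-like and -6.15 in fibroblast-like cells (edgeR adjusted p = 0.00205 and 0.00831). Its urothelial-like level was 57.95 CPM in nuclei and 4677 to 12090 CPM in cells. Detrusor cells counted with the nuclei's gene list also had little Rpl13a, as given above, so nucleus and gene list cannot be told apart for this gene. In fibroblast-like cells Rpl4 at -3.46, Rpl41 at -3.39 and Rps19 at -3.28 were also among the largest falls in log2 fold change. Mitochondrial ribosomal protein genes were lower in nuclei too, with 64 of 77 called lower and 0 higher in urothelial-like cells and a median of -2.10. Of 15 translation factors 10 fell and 0 rose. Ribosome assembly genes, several of which act in the nucleolus, had a median of -0.22, with 8 of 25 lower and 1 higher. The one that rose was Polr1b, a subunit of RNA polymerase I, at 1.17 ± 0.34 (SE, edgeR adjusted p = 0.0365).

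In bulk RNA most members were slightly higher in dissociated bladder than in intact tissue. Their share was 3.883, 4.213 and 4.102% in dissociated cells and 3.517, 3.326 and 3.527% in intact tissue. The groups did not overlap, and their means of 4.066 ± 0.168 and 3.457 ± 0.113% (SD, n = 3) were in a ratio of 1.18, with an exact two-sided permutation p of 0.1, the smallest that 3 against 3 can give. Of 81 members tested, 67 rose and 0 fell (edgeR), where 27.9% of the 16538 genes were called higher and 31.3% lower. The median log2 fold change was 0.32 for the members and -0.03 for all genes, and 80% of members lay between 0.19 and 0.46. In 75 members all dissociated libraries lay above all tissue libraries, as did 30.9% of all genes. Scaled by library size alone, 41 members were called higher and 1 lower, where 23.2% of all genes were called higher and 37.3% lower.

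The largest rise was in Rpl22l1, from 53.00, 45.10 and 40.80 CPM in tissue to 69.74, 83.07 and 70.99 CPM in dissociated cells. The groups did not overlap, and the log2 fold change was 0.69 ± 0.12 (SE, edgeR adjusted p = 0.00156). Its parent Rpl22 was at 0.18 ± 0.08 (adjusted p = 0.0811, edgeR). Rps15a rose from 317.6 to 333.6 CPM in tissue to 435.0 to 512.0 CPM in dissociated cells, with a log2 fold change of 0.54 ± 0.09 (SE, edgeR adjusted p = 0.0015). Rps27 at 0.53, Rpl9 at 0.49 and Rpl17 at 0.47 were next, and the stalk genes rose by 0.36 for Rplp0, 0.41 for Rplp1 and 0.47 for Rplp2. Rps27a rose by 0.41 and Rpl41 by 0.34.

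The 14 members not called were Rpl14, Rpl22, Rpl23a, Rpl27, Rpl28, Rpl29, Rpl37, Rps6, Rps26 and Rps28, and the copies Rpl3l, Rpl6l, Rpl7l1 and Rps27l. Rps27l was at 52.74, 53.12 and 54.16 CPM in tissue and at 46.98, 50.29 and 50.41 CPM in dissociated cells. It was the 1 member whose dissociated libraries all lay below tissue, as did 36.2% of all genes, at a log2 fold change of -0.12 ± 0.07 (adjusted p = 0.169, edgeR), while Rps27 rose. Rpl7l1 was at 0.01 ± 0.09 (adjusted p = 0.903, edgeR). Members with a tract at the annotated start had a median log2 fold change of 0.29 (13 members) and those with a window but no tract 0.33 (47 members). In urothelial-like against fibroblast-like cells these medians were 1.49 and 1.32. Between the urothelium-rich and muscle-rich regions they were 0.43 and 0.54, in the opposite order.

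The ribosome of mitochondria went the other way in the same libraries. Of 77 mitochondrial ribosomal protein genes 61 fell and 0 rose, with a median log2 fold change of -0.46. Mrpl44 was at -1.30 ± 0.12 (SE, edgeR adjusted p = 7.56e-05). Ribosome assembly genes were split, with 10 of 26 higher and 3 lower, where 27.9% of all genes were called higher and 31.3% lower. Nop58, Gnl3 and Nop56, nucleolar proteins, rose by 2.22, 1.44 and 1.23, and Polr1b fell by 0.46 on the log2 scale. Of 15 translation factors 6 rose and 0 fell, led by Tpt1 at 0.74, against the same shares of all genes. Fau and Rpsa rose by 0.45 and 0.43 among the other ribosomal protein genes, of which 4 of 6 rose, counting Rack1 also under its older symbol Gnb2l1 with identical values.

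The 2 preparations also differed in cell markers, and fewer cells of a type cannot be told apart from less RNA per cell in bulk libraries. The smooth muscle list summed to 46600 to 48590 CPM in tissue and 2583 to 3843 CPM in dissociated cells, with 10 of 10 genes lower. The fibroblast list summed to 14510 to 17910 against 25890 to 38240 CPM, with 11 of 12 genes higher, and the urothelial list to 7193 to 8237 against 5412 to 7998 CPM, with 2 of 14 higher and 6 lower. The blood endothelial (8 of 10), lymphatic endothelial (7 of 8), macrophage or monocyte (9 of 12) and erythroid lists (7 of 7) were mostly higher in dissociated cells. The erythroid list summed to 297.7 to 359.4 against 72.56 to 82.77 CPM and the lymphatic endothelial list to 449.5 to 466.2 against 179.8 to 212.7 CPM. The T or NK list summed to 38.89 to 158.1 against 16.77 to 37.25 CPM, with 2 of 10 genes higher and 0 lower. The dendritic list summed to 132 to 250 against 90.11 to 104.2 CPM, with 5 of 9 genes higher and 0 lower. In the adipocyte list 7 of 8 and in the Schwann list 5 of 8 genes were lower. The pericyte list summed to 625.1 to 717.6 against 890.7 to 931.9 CPM, with 4 of 10 genes higher and 4 lower. The neuron list summed to 137.3 to 172.7 against 268.6 to 284.7 CPM, though 4 of 8 genes were higher and 1 lower. Mitochondrially encoded genes held 2.573 to 2.744% of tissue and 1.956 to 2.234% of dissociated counts. The part of cell composition in the bulk result was not tested.

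**Figure D5:**
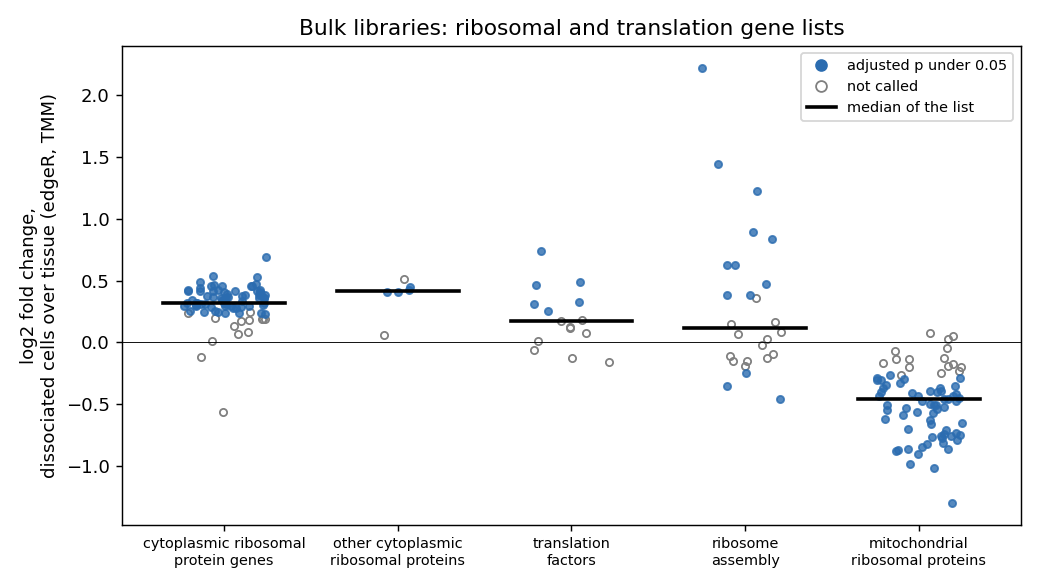
Log2 fold change of dissociated cells over intact tissue (y axis, edgeR) for the members and for 4 related gene lists (x axis), filled where the adjusted p was under 0.05, with the median of each list. The members center on 0.32 and the mitochondrial ribosomal proteins on -0.46.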

How the data were processed

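The members and all gene lists were chosen with earlier results of these data known. The deposited UMI tables of cells, nuclei and sections and the deposited bulk table hold raw counts per gene symbol, made by the authors with Cell Ranger, Space Ranger or Subread's featureCounts on build mm10, per the submitters' processing notes, which give no versions. Among the bulk rows, 280 genes with at least 1000 reads repeat another symbol's counts (1.387 to 1.468% of a library), 0 of them members.

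Barcodes with at least 500 UMIs and, for cells and nuclei, at most 20% mitochondrial counts were kept. Likely doublets (0.8% per 1000 barcodes) were removed by a Scrublet-type score. Clusters (Leiden 0.10.2, resolution 1, 30 principal components of 2000 genes, without the members) were named where at least 3 fixed markers of a class were raised 2-fold, and classes of at least 50 cells were used. Libraries of cells shared at most 64 barcodes, and sections 247 to 533, as spots lie on a fixed grid. Summed counts were tested with edgeR 4.0.16 in R 4.3.3 (robust quasi-likelihood, TMM, filterByExpr, two-sided, adjusted p under 0.05 over all genes), tested on simulated data first. DESeq2 1.42.0, other scalings, filters and left-out libraries were alternatives. Mitochondrially encoded genes stayed out of cell and section fits, as the male tables hold 0 counts for them. Named genes were up to 5 rises and 5 falls past the threshold with groups apart and a mean of at least 10 CPM, the copies with their parents, stalk genes, Rps27a, Rpl41 and the 3 highest and lowest members per kind of library. Rps2, Rps6, Rps12, Rps29, Rpl13a, Rpl24 and Rpl7a were added after their values were seen, as were the regions led by Gm42418. Levels are CPM, TMM-normalised beside tests. RefSeq transcript lengths were not used here, so levels were compared between genes only in UMI data. Start windows come from RefSeq. Some items of the named-gene rule are not reported here.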

Additional observations from a re-analysis of the deposited data

Results flagged for a closer look

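Of 68 groups of 4 sections or more examined among named members, 2 held a section far from the others, and chance flags about 1 in 20 groups. Rpl13a in the urothelium-rich regions had its highest value, 1230 CPM, in the second 22-month section, against 788.8 to 832.1 CPM in the other sections. Rps27l in the muscle-rich regions had its lowest value, 272.8 CPM, in the first 22-month section, against 284.3 to 286.2 CPM in the others.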

How the results depend on the processing

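Of 1814 values of single members under alternatives, 1652 kept their direction and side of the threshold, 51 lost the call, 85 gained it and 26 changed sign. Of 216 counts and shares, 201 stayed within 1.5 times or within the spread, and 15 moved. The cause of these changes was not tested. In bulk, members called higher were 67, and 41 by library size alone (1 lower), 0 at an absolute log2 fold change of at least 1, 66 with the replicate number as a replicate block (0 lower) and 45 to 69 with each replicate left out. The shares of all genes called higher were 27.9, 23.2, 12.0, 28.6 and 22.5 to 27.7% in that order. Deviations of same-numbered bulk libraries correlated at 0.203, 0.344 and -0.07, so the numbers were not taken as pairs. For urothelial-like against fibroblast-like cells the count was 78, 26 with no replicate block and 77 with each library left out. Of all genes 35.9, 27.9 and 30.8 to 34.2% were called higher. For regions it was 56 higher and 2 lower, 52 and 2 with no replicate block, and 45 to 59 and 2 to 3 with a section left out. Of all genes 37.3, 35.9 and 34.0 to 35.1% were called higher there, and 35.6, 34.3 and 33.5 to 34.8% lower. For nuclei, falls in urothelial-like cells numbered 23, 41 with DESeq2, 79 with the 12-month or the mixed-sex cell libraries alone and 16 to 33 with a library left out. In fibroblast-like cells they numbered 15, 33 with DESeq2, 78 with either subset and 10 to 28 (28 without the 3-month male library). In the main fits, with 80 urothelial-like and 79 fibroblast-like members tested, 19.9 and 15.2% of all genes were called lower. Whether the lowest of these counts, 16 and 10, exceed the share of all genes in the same fits was not tested. For section age the count was 0, 9 with DESeq2 and 0 to 4 with a section left out (4 without the first 22-month section). For cell age it was 0, and 0 to 9 higher and 0 to 7 lower with a library left out (9 and 7 without the 24-month library, which leaves 1 male library against 1). Scaling by library size alone moved the median of all genes to -0.14 in bulk, -0.27 for urothelial-like cells, 1.09 and 0.57 for nuclei and 0.16 for regions.

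Among log2 fold changes that changed sign, Rpl7l1 in bulk was -0.0962 by library size alone, -0.0083 with no filter, and -0.0286 to 0.1034 with a replicate left out. In urothelial-like cells Rpl22l1 was -0.0595 and Rpl7l1 -0.1629 by library size alone, and Rpl7l1 -0.239 in the male libraries. For cell age with a library left out, Rpl10 ran from -0.49 (without the 24-month library) to 0.0836, Rpl3 from -1.6627 to 0.0715, Rpl41 from -0.2798 to 0.7796, Rpl7 from -3.3912 to 0.1076, Rps27a from -0.9991 to 0.1431 and Rps4x from -0.2291 to 0.1027. With no sex term Rpl22l1 was -0.2333, Rpl39 -0.2271, Rpl41 -0.2849, Rplp2 -0.1035 and Rps27l -0.0207, and Rps4x was 0.0051 with at least 1000 UMIs. Depth limits the copies Rpl3l, Rpl10l and Rpl39l, which rest on a few counts. The male cell libraries also hold few counts of Rps6, Rps12 and Rps29, while the shallower nuclei library holds 4186, 4483 and 4906.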
